A study of Mus musculus with 22 samples.

Results

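The genes described here are 10 imprinted genes, H19, Igf2, Mest, Peg3, Peg10, Nnat, Plagl1, Dlk1, Meg3 and Cdkn1c, chosen by their symbols in the deposited gene lists. All 10 were present among the 32285 genes counted. The study profiled gastruloids, clusters grown from mouse embryonic stem cells that elongate and take on fates found in the young embryo. Every sample came from the wild-type E14Tg2A stem cell line, kept in serum medium with LIF, aggregated in N2B27 medium and then pulsed with the GSK3 inhibitor CHIR99021, so no group carried a mutation, transgene or untreated control. One stem cell line was used, and gastruloids made together share a culture. Cells of single gastruloids were marked with lipid barcodes (MULTI-seq) and sequenced with the 10x Genomics method that counts transcript ends by unique molecular identifier (UMI).

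Gastruloids were the replicates. MULTI-seq 1 held 24 gastruloids of day 5. MULTI-seq 2 held 11 of day 4 and 12 of day 4.5. MULTI-seq 3 held 24 of day 3 in one pool, 16 each of day 3.5 and day 4 in another pool, and 16 each of day 4.5 and day 5 in a further pool. Over these 135 gastruloids, 1 more being left out for having under 30 cells, between 1293296 and 57333371 UMIs were counted per gastruloid. Levels are given as CPM, the UMIs of a gene scaled to a common total of UMIs in the gastruloid or cell type. Median UMIs per cell ranged from 8287 to 38443 over the 18 lanes, and the MULTI-seq 1 lanes were among the shallowest. Lanes shared few cell barcodes, 732 of 76935 distinct ones (0.951%).

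Imprinted genes are expressed mainly from the copy inherited from one parent, under the control of DNA methylation laid down in the germ line. Many act on fetal growth: Igf2 is a growth factor, Cdkn1c an inhibitor of cyclin-dependent kinases, and H19 a noncoding RNA that shares a control region with Igf2. Imprints can drift in cultured embryonic stem cells. The counts do not separate the parental copies, so every level below is the sum of both.

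The labelled cell types were the authors' own cluster names, 25 in all. Defining markers were highest in the named type for 4 of 4 endothelial, 4 of 4 neuronal, 3 of 3 notochord, 4 of 5 somite and 4 of 5 endoderm genes, and for 3 of 4 presomitic mesoderm, 3 of 4 germ cell, 3 of 5 spinal cord and 3 of 5 cardiopharyngeal genes. They were highest elsewhere for all 3 neuromesodermal progenitor and all 3 primitive streak markers, and only 1 of 3 head mesoderm markers was highest in Head Mesoderm. Because several members are also abundant in extraembryonic lineages, those markers were summed: extraembryonic endoderm genes reached at most 6.33 CPM and trophoblast genes at most 28.0 CPM in any gastruloid. Blood genes reached at most 2.06 CPM, with Hbb-bh1 at 0 in every group. The summed pluripotency markers had a median of 806 CPM at day 3 and 18.6 CPM at day 5 of MULTI-seq 3.

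Stretches upstream of Nnat, Plagl1, Meg3 and Mest are shown because these members, with H19, were called lower in MULTI-seq 3 than in MULTI-seq 1 within cell types, described further on. RefSeq windows of the 250 bases before a transcript start (GRCm38.p6) matched 7 of the 10 members, in 13 windows; H19, Peg10 and Cdkn1c were not matched. Capitals mark the hexamer TGCCGC or its reverse complement GCGGCA, the core bound by the zinc finger protein ZFP57, which keeps imprints. The windows are chr2:157559828-157560077 for Nnat, chr10:13090582-13090831 for Plagl1, chr12:109540746-109540995 for Meg3 and chr6:30737800-30738049 for Mest, all on the plus strand.
Nnat: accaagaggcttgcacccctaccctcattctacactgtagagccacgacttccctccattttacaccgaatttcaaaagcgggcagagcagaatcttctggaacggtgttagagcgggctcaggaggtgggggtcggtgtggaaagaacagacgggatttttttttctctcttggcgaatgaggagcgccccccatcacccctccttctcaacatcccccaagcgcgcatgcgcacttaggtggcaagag
Plagl1: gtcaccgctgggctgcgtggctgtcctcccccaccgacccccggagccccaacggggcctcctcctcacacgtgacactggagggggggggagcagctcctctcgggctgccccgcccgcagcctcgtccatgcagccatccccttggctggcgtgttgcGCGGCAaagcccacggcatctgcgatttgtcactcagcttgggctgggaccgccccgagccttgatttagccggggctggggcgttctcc
Meg3: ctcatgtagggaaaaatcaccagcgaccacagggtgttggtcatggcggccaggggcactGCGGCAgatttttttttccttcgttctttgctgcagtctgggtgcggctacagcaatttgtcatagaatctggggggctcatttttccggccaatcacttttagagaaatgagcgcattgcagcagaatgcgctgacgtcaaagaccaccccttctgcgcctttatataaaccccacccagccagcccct
Mest: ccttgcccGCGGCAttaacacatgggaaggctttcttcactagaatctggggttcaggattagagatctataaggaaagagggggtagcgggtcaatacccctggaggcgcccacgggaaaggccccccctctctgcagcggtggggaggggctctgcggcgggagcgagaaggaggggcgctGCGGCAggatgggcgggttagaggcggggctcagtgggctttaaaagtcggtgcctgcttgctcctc
The hexamer was present in 4 of the 13 member windows, belonging to Mest, Plagl1 and Meg3. Both Mest windows among them are nearly the same stretch, starting at 30737800 and 30737803, so the 4 hold 3 separate sequences. It was present on either strand in 8.68% of all 32851 windows of this length. Counting from the start site, it lay at -90 in Plagl1 and at -190 in Meg3, and the Mest window held 2 copies, while the Nnat window held none. The Plagl1, Mest, Nnat and Meg3 windows printed held 19, 14, 12 and 10 CpG dinucleotides, against a median of 6 over all windows. Another Mest window held 7 CpG and another Meg3 window 0, both without the hexamer. None of the windows of Peg3, Igf2 and Dlk1, which are not printed, held it. A match of letters is a description and not a bound site. 

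Igf2 (chr7:142650766-142666816, minus strand, protein coding, GRCm38) rose at both of the first steps of MULTI-seq 3. Day 3 gastruloids of MULTI-seq 3 had 1.77, 3.07 and 7.28 CPM as lowest, median and highest. Those of day 3.5 had 9.16, 15.0 and 24.8 CPM, and those of day 4 reached 25.1, 116 and 206 CPM. No gastruloid of day 3.5 was as low as any of day 3, and none of day 4 as low as any of day 3.5. The log2 fold change was 2.10 ± 0.14 (SE) from day 3 to 3.5 (adjusted p = 2.66e-17) and 2.81 ± 0.24 from day 3.5 to 4 (adjusted p = 1.37e-10), by edgeR's quasi-likelihood test with Benjamini-Hochberg adjustment over all genes, called at 0.05. Such changes were common: 74.8% of all genes tested were called between days 3 and 3.5, and 60.4% between days 3.5 and 4. Day 3 and day 3.5 came from different pools, so day and pool cannot be told apart in that step, whereas days 3.5 and 4 shared pool and lanes. In a whole gastruloid, fewer cells of a type and less RNA per cell cannot be told apart either.

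After day 4, Igf2 in MULTI-seq 3 was first lower and then higher. Day 4.5 gastruloids of MULTI-seq 3 spanned 16.5, 66.2 and 129 CPM, and the day 5 ones 43.7, 109.5 and 191 CPM. It was lower at day 4.5 than at day 4 (log2 fold change -0.67 ± 0.29, adjusted p = 0.0442, edgeR) and higher at day 5 than at day 4.5 (0.75 ± 0.25, adjusted p = 0.0429, edgeR). Both calls sat near the threshold, and leaving out lane A of the later pool ended them, at adjusted p = 0.0506 and 0.0533 (edgeR). Leaving out lane C, or using no filter, ended the second (adjusted p = 0.0636 and 0.0568, edgeR). In MULTI-seq 2 Igf2 spanned 6.94, 22.6 and 72.7 CPM at day 4 and 10.0, 74.2 and 200 CPM at day 4.5. There its mean was higher at day 4.5 (log2 fold change 1.24 ± 0.44) without passing the test (adjusted p = 0.0891, edgeR). The difference between the 2 experiments in this step did pass, at -1.92 ± 0.53 on the log2 scale (adjusted p = 0.00309, edgeR). Days 4 and 4.5 shared a pool in MULTI-seq 2 but not in MULTI-seq 3, so in the latter, and in each such difference between the experiments given below, day and pool cannot be told apart.

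H19 (chr7:142575529-142578143, minus strand, long noncoding RNA), 72623 bases from Igf2, was near its counting limit early on. It was at 0 in 20 of 24 gastruloids of day 3 and 11 of 16 of day 3.5 in MULTI-seq 3. At day 4 it was above 0 in all 16, with 0.0461, 0.329 and 3.26 CPM as lowest, median and highest, and at day 5 it had 0.123, 1.2 and 5.75 CPM. Its counts were too low for the filter of the test in every step within MULTI-seq 3. Without a filter on low counts, the step from day 3.5 to day 4 gave a log2 fold change of 3.81 ± 0.70 (adjusted p = 4.21e-05, edgeR). The other steps of H19 within MULTI-seq 3 missed the threshold in that fit.

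Cdkn1c (chr7:143458339-143461050, minus strand) changed in the same direction in whole gastruloids at each step from day 3.5 on. In MULTI-seq 3 its medians were 55.2, 65.0, 156, 199 and 324 CPM in the order of days 3, 3.5, 4, 4.5 and 5. The day 5 gastruloids spanned 233 to 461 CPM and those of day 3 44.2 to 80.8 CPM, with no overlap between these ends. The log2 fold change was 0.04 ± 0.06 from day 3 to 3.5 (adjusted p = 0.572), 1.32 ± 0.16 to day 4 (adjusted p = 3.43e-08), 0.55 ± 0.17 to day 4.5 (adjusted p = 0.00606) and 0.62 ± 0.11 to day 5 (adjusted p = 0.000388), all by edgeR. With plain library sizes, that is with the members left out of the totals and no composition factors, the first step was called (0.20, adjusted p = 0.00124) and the step to day 4.5 was lost (0.35, adjusted p = 0.0791, edgeR). In MULTI-seq 2 the medians were 96.1 CPM at day 4 and 150 CPM at day 4.5, and the difference of 0.58 ± 0.18 missed the threshold (adjusted p = 0.0506, edgeR). It was called by DESeq2's test (adjusted p = 0.0212), with plain library sizes (0.61, adjusted p = 0.0418, edgeR) and with equal weight per cell type (0.97, adjusted p = 0.0460, limma).

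Mest (chr6:30723547-30748465, plus strand), a paternally expressed gene named for its mesodermal expression, was called higher at every step of MULTI-seq 3. Its medians were 19.3, 41.2, 63.5, 151 and 255 CPM from day 3 to day 5. The log2 fold changes were 0.95 ± 0.18, 0.54 ± 0.24, 1.45 ± 0.18 and 0.75 ± 0.12, with adjusted p of 5.85e-06, 0.0499, 1.04e-08 and 4.42e-05 (edgeR). The second of these is at the threshold and was lost without lane A or lane B of that pool (adjusted p = 0.0650 and 0.0714, edgeR), and likewise with DESeq2's size factors (0.0503), no filter (0.0591) or at least 100 cells (0.0992). From day 4 to 4.5 in MULTI-seq 2, Mest went from 25.4, 77.8 and 135 CPM to 122, 148 and 277 CPM. All 12 later gastruloids were above the earlier median, and the change of 1.07 ± 0.19 was called (adjusted p = 0.00103, edgeR), where 7.36% of all genes were, 3.03% higher and 4.33% lower. Mest overlaps Copg2 on the other strand, and reads of the overlap can be split between them where counting ignores strand.

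Peg10 (chr6:4747306-4760517, plus strand), a gene derived from a retrotransposon and known from the placenta, rose early and fell later. Its lowest, median and highest values in MULTI-seq 3 were 16.4, 23.3 and 53.0 CPM at day 3 and 55.1, 79.8 and 99.4 CPM at day 3.5. Day 4 gave 42.6, 84.2 and 136 CPM, followed by 8.86, 18.0 and 36.5 CPM for day 4.5. The groups did not overlap at the first step up or at the last step down. The rise was 1.5 ± 0.11 (adjusted p = 1.22e-16) and the fall -1.90 ± 0.18 on the log2 scale (adjusted p = 4.76e-11, edgeR), the latter in a step where 66.1% of all genes were called and day and pool cannot be told apart. In MULTI-seq 2, where both days shared a pool, Peg10 also fell from day 4 to 4.5 (medians 37.1 and 16.5 CPM, -1.14 ± 0.21, adjusted p = 0.00122, edgeR). The fall was larger in MULTI-seq 3 by -0.77 ± 0.28 (adjusted p = 0.0290, edgeR), a call lost when lane 2 or lane 3 of MULTI-seq 2 or lane B of the later pool was left out, at adjusted p of 0.0528, 0.0564 and 0.0510 (edgeR).

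Peg3 (chr7:6703892-6730431, minus strand) encodes a large zinc finger protein. It was higher at day 3.5 than at day 3 (medians 399 and 291 CPM, log2 fold change 0.50 ± 0.12, adjusted p = 0.000271, edgeR). At day 4 it spanned 213, 616 and 825 CPM, which missed the threshold against day 3.5 (0.37 ± 0.19, adjusted p = 0.0906, edgeR). It fell to 169, 310 and 531 CPM at day 4.5 (-0.79 ± 0.19, adjusted p = 0.000372, edgeR), with all 16 gastruloids below the day 4 median. In MULTI-seq 2, where both days shared a pool, Peg3 medians were 407 CPM at day 4 and 347 CPM at day 4.5. That change missed the threshold (-0.37 ± 0.29, adjusted p = 0.489, edgeR). Day 3 was the most uniform group for Peg3, with 241 CPM in the lowest and 350 CPM in the highest gastruloid, against 225 to 774 CPM at day 3.5.

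Nnat (chr2:157560078-157562522, plus strand) encodes neuronatin, a small membrane proteolipid, and lies inside an intron of Blcap, which is read from the other strand. Its values were widely spread at every stage. In MULTI-seq 3 its lowest, median and highest gastruloids had 1.24, 2.18 and 8.36 CPM on day 3 and 0.865, 4.35 and 18.6 CPM on day 3.5. The day 4 values were 3.48, 13.3 and 70.7 CPM and the day 4.5 values 12.4, 24.3 and 119 CPM. Those of day 5 were 2.66, 20.8 and 135 CPM. The day 5 gastruloids thus differed 50.9-fold between the ends. Nnat rose at the first 3 steps, by 0.84 ± 0.27, 1.52 ± 0.37 and 1.41 ± 0.35 on the log2 scale (adjusted p = 0.00504, 0.000690 and 0.000604, edgeR). From day 4.5 to 5 the value was -0.32 ± 0.39 (adjusted p = 0.639, edgeR).

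In MULTI-seq 2, Nnat had a median of 45.8 CPM at day 4 and 71.1 CPM at day 4.5, with means of 70.2 and 72.0 CPM. The fitted log2 fold change, -0.05 ± 0.40 (adjusted p = 0.978, edgeR), had the other sign and was small beside its error. The test of the difference between the experiments gave 1.45 ± 0.54 (adjusted p = 0.0313, edgeR), which was lost without lane 3 of MULTI-seq 2 or lane A of the day 4 pool (adjusted p = 0.0540 and 0.0513, edgeR), with plain library sizes (1.22, adjusted p = 0.0644, edgeR) and with no filter (adjusted p = 0.0630, edgeR). Of the 10 members tested, Igf2, Peg10 and Nnat were called for this difference, as were 33.9% of all genes, 17.4% higher and 16.5% lower.

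Dlk1 (chr12:109452823-109463336, plus strand), a paternally expressed transmembrane relative of the Notch ligands, and Meg3 (chr12:109541001-109571726, plus strand), a maternally expressed noncoding RNA 77665 bases away, were both called in a single step of MULTI-seq 3, from day 3.5 to 4, with Dlk1 higher and Meg3 lower. Dlk1 medians in MULTI-seq 3 were 2.10, 2.31, 7.5, 7.83 and 14.2 CPM from day 3 to day 5. It rose at the step to day 4 (1.13 ± 0.26, adjusted p = 0.000333) and at the step to day 5 (0.92 ± 0.28, adjusted p = 0.0245, edgeR), and missed the threshold at the other 2. With plain library sizes the step from day 3 to 3.5 was called too (0.53, adjusted p = 0.0195, edgeR). Meg3 medians were 266, 240, 229, 139.5 and 147 CPM over the same days. It fell at the first 3 steps, with changes of -0.27 ± 0.07, -0.18 ± 0.08 and -0.46 ± 0.11 on the log2 scale (adjusted p = 0.000607, 0.0377 and 0.000634, edgeR). The first 2 of these falls were not called with plain library sizes (-0.11 and -0.16, adjusted p = 0.186 and 0.0754, edgeR). The second was also not called with no filter (adjusted p = 0.0843) or with at least 100 cells (adjusted p = 0.123, edgeR). In MULTI-seq 2, Meg3 medians were 255 CPM at day 4 and 233 CPM at day 4.5, which missed the threshold (-0.29 ± 0.14, adjusted p = 0.235, edgeR).

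Plagl1 (chr10:13060504-13131694, plus strand), a zinc finger transcription factor that acts on other imprinted genes, was scarce in MULTI-seq 3. Its median ranged from 0.124 CPM at day 3 to 0.366 CPM at day 5, and it failed the filter of the test at each step there. In MULTI-seq 1 it spanned 0, 4.49 and 10.2 CPM.

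**Figure D1:**
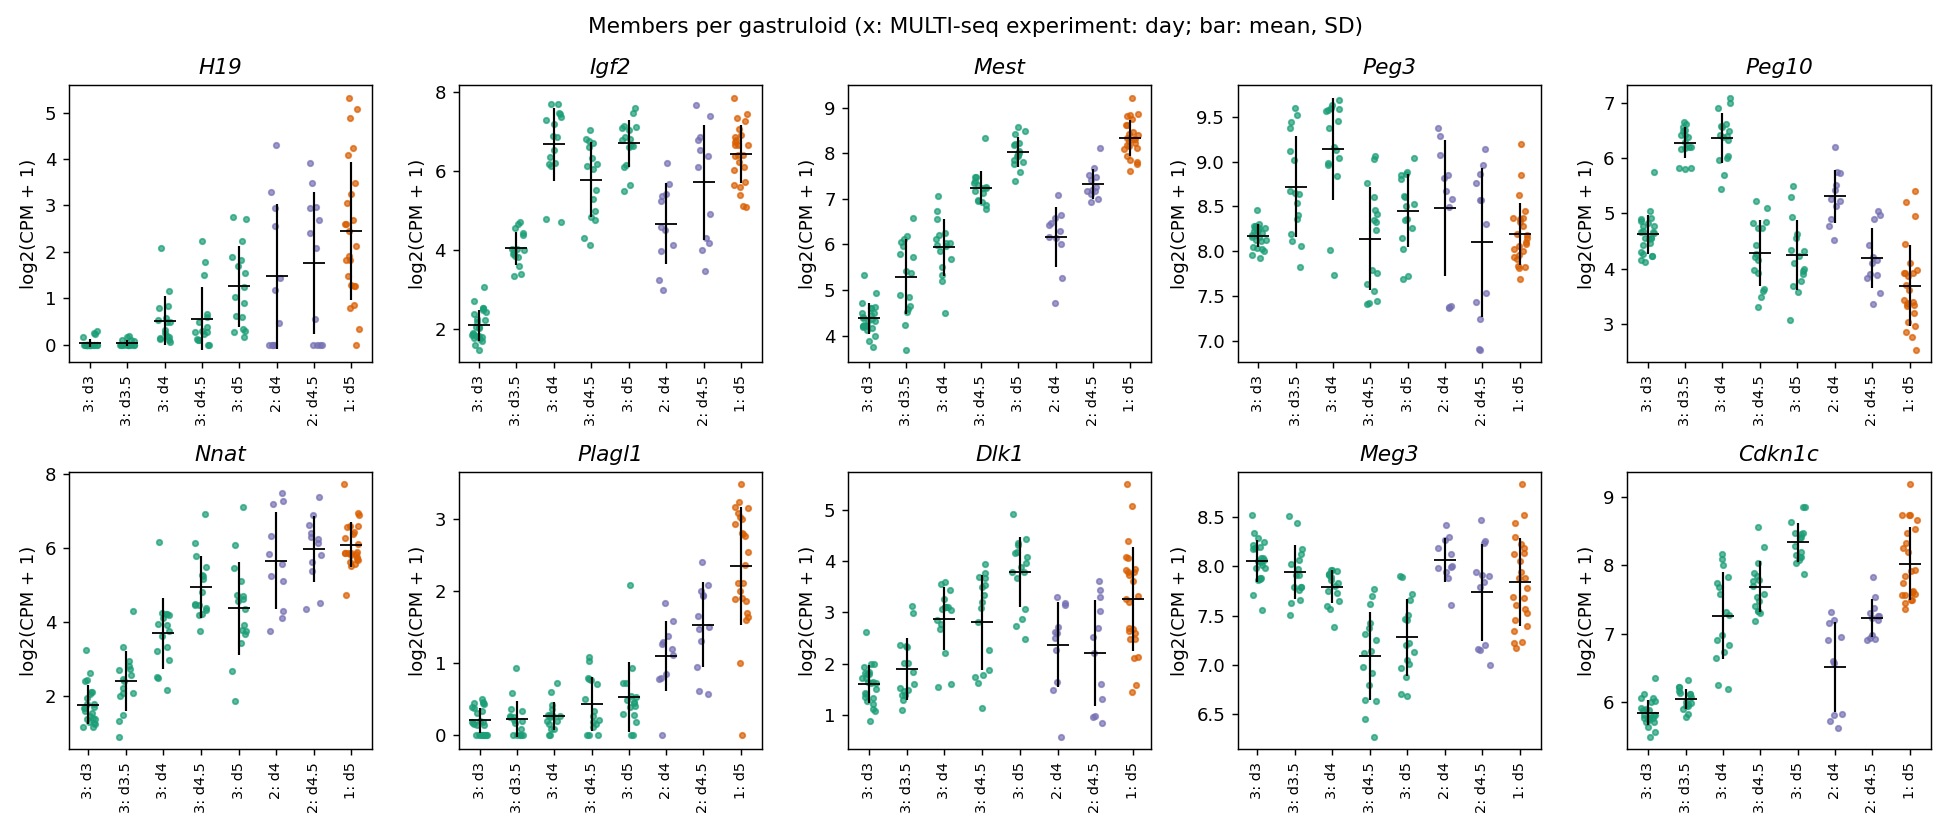
Level of each of the 10 genes in every gastruloid (points, log2(CPM + 1) on the y axis) by experiment and day (x axis). Green is MULTI-seq 3, purple MULTI-seq 2 and orange MULTI-seq 1, and the values named here are in CPM. Igf2 climbs from 1.77 to 7.28 CPM at day 3 to 25.1 to 206 CPM at day 4, and the Plagl1 points of MULTI-seq 1 reach 10.2 CPM.

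Over the 8 members that entered the tests within MULTI-seq 3, 5 rose and 1 fell from day 3 to 3.5, and 5 rose and 1 fell from day 3.5 to 4. From day 4 to 4.5, 3 rose and 4 fell, and from day 4.5 to 5, 4 rose and 0 fell. Over all genes tested, the shares called higher and lower were 39.3% and 35.6% in the first step, 31.1% and 29.2% in the second, 32.4% and 33.8% in the third, and 6.35% and 7.11% in the last, where 13.5% were called in either direction. H19 and Plagl1 did not enter these counts, since their reads were too few. When each cell type was given equal weight, by averaging CPM over types and testing log2(CPM + 1) with limma in place of edgeR, 11 of the calls described for whole gastruloids here and further on were lost. They were Mest (adjusted p = 0.0853) and Meg3 (0.292) from day 3.5 to 4, Meg3 from day 3 to 3.5 (0.604), Dlk1 from day 4.5 to 5 (0.0697) and Peg10 in MULTI-seq 2 (0.143, limma). Between experiments they were Meg3 at day 4 (adjusted p = 0.113), Nnat (0.208) and Meg3 (0.128) at day 4.5, Cdkn1c (0.0705) and Peg3 (0.588) at day 5 and the Nnat difference in the step to day 4.5 (0.0587, limma). Equal weight also added 4 calls, which were Cdkn1c from day 3 to 3.5 (0.32, adjusted p = 0.00186) and from day 4 to 4.5 in MULTI-seq 2 (0.97, adjusted p = 0.0460), and, between experiments, Peg3 at day 4 (0.55, adjusted p = 0.0439) and Mest at day 5 (-0.58, adjusted p = 4.08e-05, limma).

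**Figure D2:**
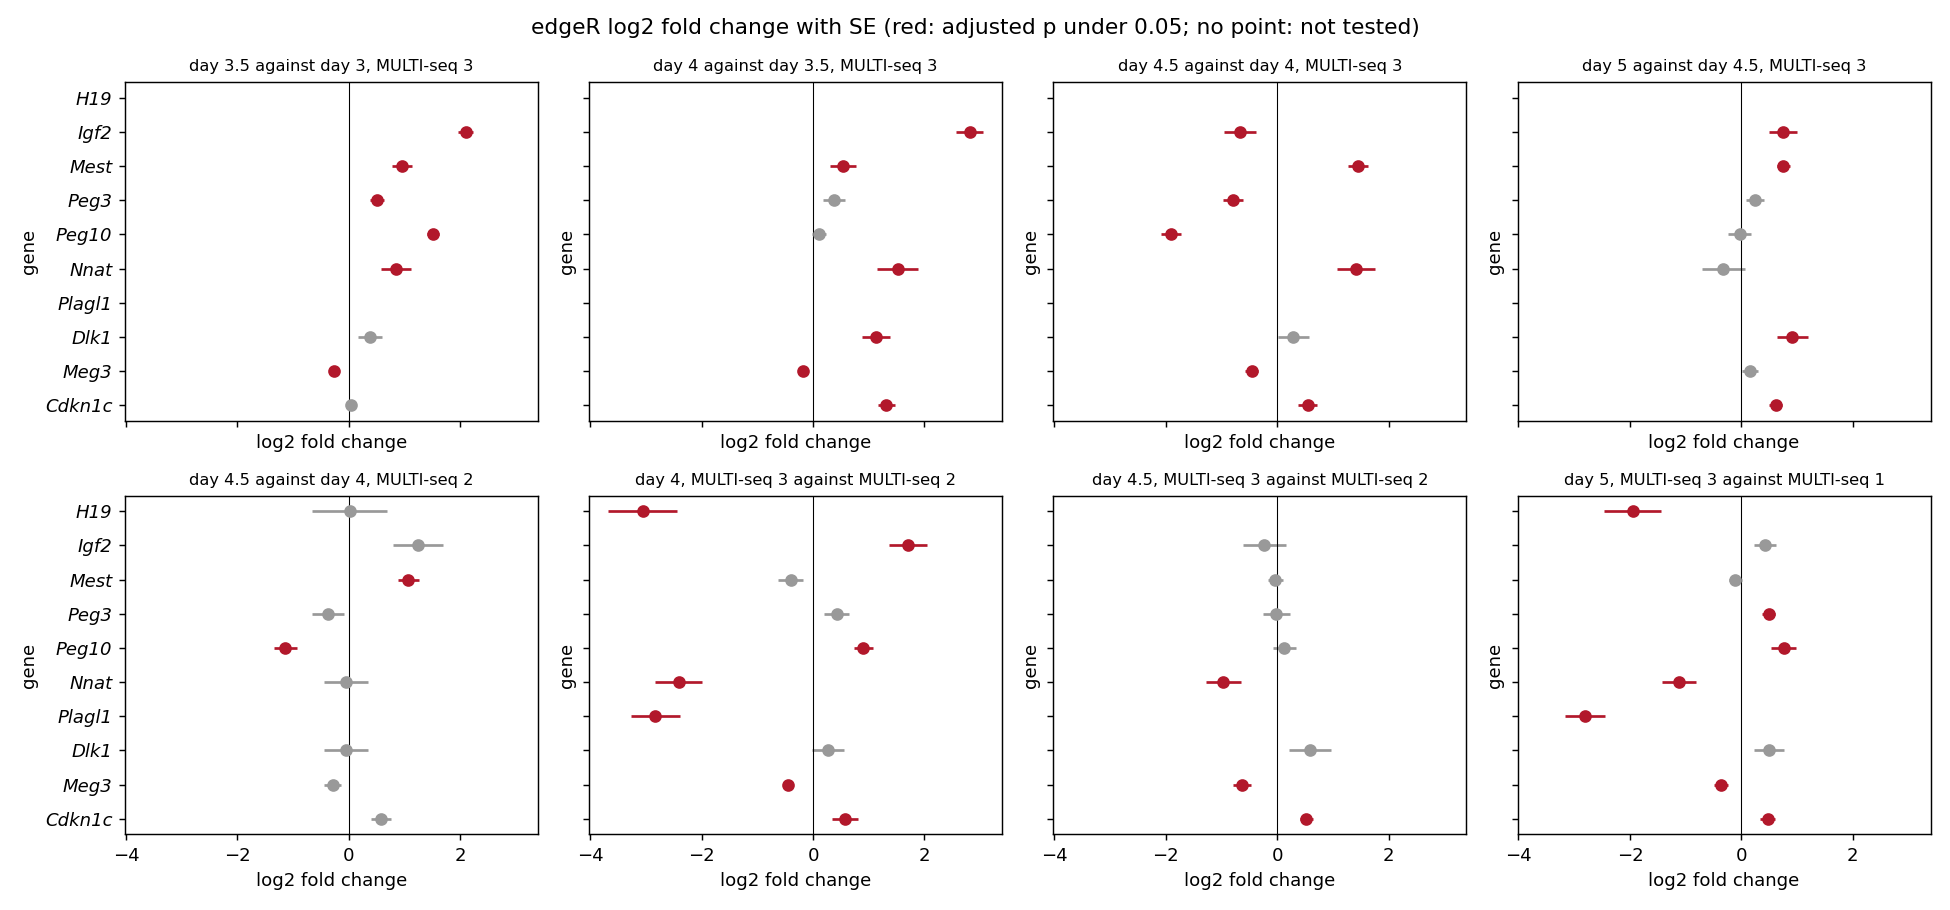
Log2 fold change of each member (points) with its standard error (bars) in the day steps and in the comparisons between experiments, from edgeR. Igf2 stands at 2.10 and 2.81 in the first 2 steps and Peg10 at -1.90 in the step from day 4 to day 4.5 of MULTI-seq 3.

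Across cell types at day 5 of MULTI-seq 3, the members had distinct orders among the 12 types with at least 3 gastruloids of 10 or more cells. Cardiopharyngeal Mesoderm (69 cells from 7 gastruloids, 1 of them with 10 or more cells) was left out of these orders and is given after them. Igf2 was at 389 ± 86.6 CPM in Endothelium (SD, n = 6), 366 ± 72.3 in Head Mesoderm (n = 7), 206 ± 37.2 in Somites (n = 12) and 188 ± 16.9 in Mature Somites (n = 16). It was at 28.2 ± 9.24 in Late Spinal Cord (n = 8) and 4.86 CPM in Late Neurectoderm. Endothelium and Head Mesoderm lay within their spread of each other, as did Somites and Mature Somites, while the gaps between those pairs and above Late Neurectoderm exceeded the larger SD. Of the 11 gaps between neighbours in the order, 5 exceeded the larger SD for Igf2.

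Mest was at 784 ± 172 CPM in Endothelium and 549 ± 85.5 in Mature Somites, then 220 ± 54.1 in Late Spinal Cord, down to 20.9 ± 6.23 in Late Posterior PSM (presomitic mesoderm). The first 2 gaps exceeded the larger SD. Among these types Peg10 shared the top one with Mest and Igf2, at 114 ± 27.3 CPM in Endothelium against 48.8 ± 14 in Head Mesoderm, and its ranges in these types did not overlap. Peg3 had the opposite ends among them, 621 ± 87.0 CPM in Mature Somites and 82.3 ± 32.5 CPM in Endothelium. Endothelium rested on 122 cells.

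Among the ranked types, the somite pair of clusters held the highest levels of the chromosome 12 genes. Meg3 was at 584 ± 107 CPM in Somites, 266 ± 45.5 in Mature Somites and 47.6 CPM in NMPs (neuromesodermal progenitors). Dlk1 was at 53.7 ± 30.4 CPM in Somites and 33.8 ± 8.84 in Mature Somites, which was beyond the spread of the next type, Late Anterior PSM, at 12.3 ± 3.37. H19 was also highest there among the ranked types, at 4.45 ± 6.18 CPM in Somites and 4.31 ± 4.24 in Mature Somites, with no gap beyond the spread. Cdkn1c was at 838 ± 356 CPM in Notochord (n = 3), 522 ± 132 in Somites and 465 ± 102 in Late Spinal Cord, and none of its 11 gaps exceeded the larger SD. For Nnat, the SD was as large as the mean in the top type, 58.5 ± 58.3 CPM in Mature Somites. Plagl1 had its highest mean in Endothelium, 7.05 ± 11.7 CPM, also within its spread.

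Pooled over its 69 cells, Cardiopharyngeal Mesoderm had 1082 CPM of Peg3 (exact Poisson 95% interval 1040 to 1126, which covers counting error only). That is above the Peg3 level of each ranked type. Peg10 at 143 CPM (128 to 159) and Nnat at 125 CPM (110.4 to 139.96) were also above the means of the leading ranked types, 114 and 58.5 CPM. Igf2, at 378 CPM (353 to 404), lay near Endothelium and Head Mesoderm, and Cdkn1c, at 825 CPM (788 to 863), near Notochord. Meg3 at 329 CPM (306 to 354), Dlk1 at 34.1 CPM (26.9 to 42.6) and H19 at 4.87 CPM (2.43 to 8.72) were above their means in Mature Somites, for Dlk1 and H19 with intervals that hold those means. Mest was at 179 CPM (162 to 197), and Plagl1 was found as 1 UMI. With so few gastruloids this type has no spread and no test. Its values are pooled over cells, while those of the ranked types are means over gastruloids. H19 was found in 2.90% of its cells, with 9 of the 11 UMIs in a single cell. Nnat was found in 15.9%, with 83 of the 281 UMIs in a single cell.

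**Figure D3:**
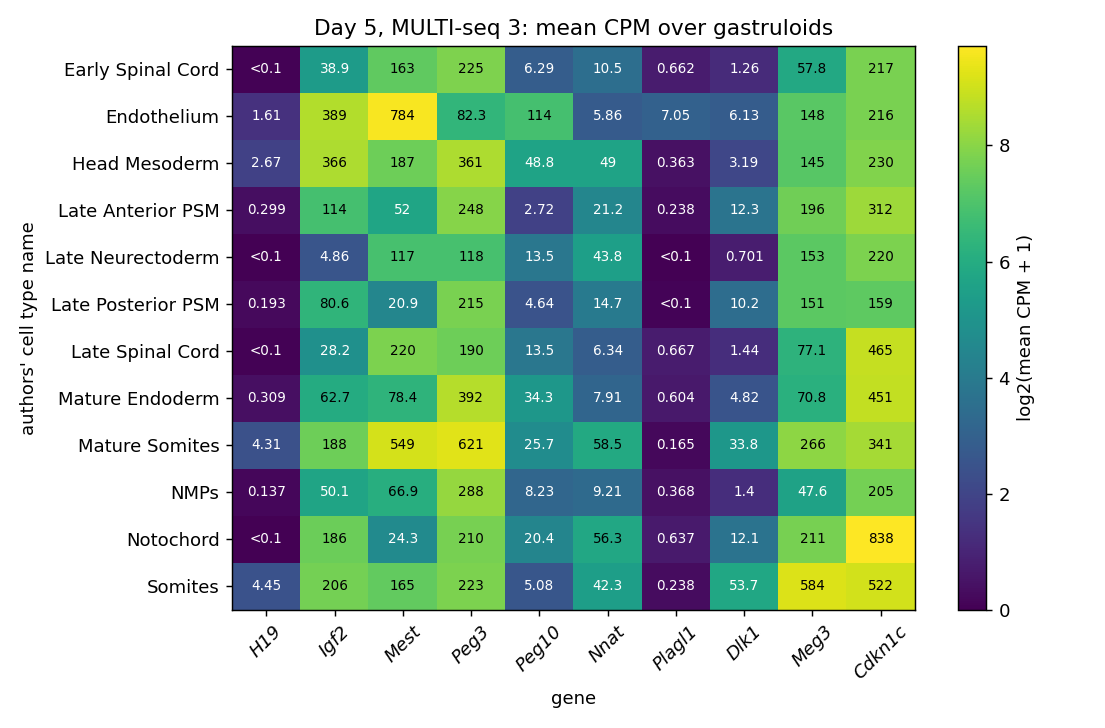
Mean level of each member by cell type at day 5 of MULTI-seq 3 (CPM), over gastruloids with at least 10 cells of the type. Among the types shown, Endothelium carries the highest Igf2 (389), Mest (784) and Peg10 (114) and the lowest Peg3 (82.3). Cardiopharyngeal Mesoderm, with 1 gastruloid of 10 or more cells, is not shown.

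The orders at day 4 and in MULTI-seq 1 had the same leading types for some members only. At day 4 of MULTI-seq 3, Peg3 was at 1343 ± 62.7 CPM in Cardiopharyngeal Mesoderm (n = 8) and 1089 ± 185 in Mature Somites (n = 7). Peg10 was at 199 ± 15.7 CPM in Early Nascent Mesoderm (n = 4) and 188 ± 32.8 in Late Nascent Mesoderm (n = 14), against 12.9 CPM in Late Anterior PSM. Meg3 was again highest in Somites, at 499 ± 158 CPM. In MULTI-seq 1 at day 5, Meg3 was at 1013 ± 346 CPM in Somites and Mest at 859 ± 271 in Mature Somites. H19 there was at 78.7 ± 69.3 CPM in Head Mesoderm (n = 4) and Igf2 at 516 ± 127. Plagl1 in that experiment was highest in Early Spinal Cord among the ranked types, at 7.62 ± 5.34 CPM, and had 0.935 ± 1.18 CPM in Mature Somites. Endothelium of MULTI-seq 1, left out for having 1 gastruloid of 10 or more cells, had 33.9 CPM of Plagl1 (exact Poisson 95% interval 24.3 to 46.0) and 1288 CPM of Mest (1225 to 1353) pooled over 77 cells. Cardiopharyngeal Mesoderm, left out there too, had 998 CPM of Peg3 (951 to 1046) over 140 cells. Its Dlk1 was at 113 CPM (98.1 to 130), beside a mean of 59.8 ± 28.4 in Somites of that experiment. Meg3 in the same cells, at 497 CPM (464 to 531), was below its mean in Somites.

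Within single cell types, the members could be tested apart from the makeup of the gastruloid. From day 4.5 to 5 in MULTI-seq 3, Cdkn1c rose in 7 of 8 types and Igf2 in 6 of 8, where between 1.63% and 14% of genes were called per type. The share was 1.63% in Mature Endoderm, 2.86% in Late Anterior PSM, 3.6% in Somites, 6.88% in Late Posterior PSM, 7.55% in NMPs, 7.79% in Late Spinal Cord, 12.4% in Early Spinal Cord and 14% in Mature Somites. Cdkn1c went from 253 ± 63.3 to 522 ± 132 CPM in Somites (log2 fold change 1.08 ± 0.12, adjusted p = 2.26e-08, edgeR) and from 142 ± 28.3 to 312 ± 108 CPM in Late Anterior PSM (1.17 ± 0.16, adjusted p = 1.87e-06). Igf2 went from 11.9 ± 1.79 to 28.2 ± 9.24 CPM in Late Spinal Cord (1.12 ± 0.22, adjusted p = 0.00251, edgeR). It stayed within the spread in Late Anterior PSM, at 115 ± 17.6 and 114 ± 24.6 CPM. Mest, called higher in whole gastruloids, rose in 1 of 8 types, Mature Somites, from 361 ± 215 to 549 ± 85.5 CPM (0.73 ± 0.12, adjusted p = 2.86e-05, edgeR). Dlk1 rose in 1 of 4 types, again Mature Somites (22.0 ± 8.23 to 33.8 ± 8.84 CPM, 0.73 ± 0.17, adjusted p = 0.00204, edgeR). Peg3 rose in 4 of 8 and fell in Somites, from 305 ± 57.6 to 223 ± 43.4 CPM (-0.44 ± 0.10, adjusted p = 0.00397, edgeR). Peg10 fell in 3 of 5, although its whole-gastruloid value was -0.03 ± 0.21 (adjusted p = 0.956, edgeR).

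From day 3.5 to 4, 2 types could be tested. Igf2 rose in both, from 14.6 ± 3.47 to 21.1 ± 6.75 CPM in Caudal Epiblast (0.58 ± 0.11, adjusted p = 0.000297) and from 21.5 ± 7.46 to 54.4 ± 14.2 CPM in Early Posterior PSM (1.41 ± 0.12, adjusted p = 2.82e-11, edgeR). Both values are below the 2.81 of whole gastruloids. Peg3 fell in both, from 397 ± 42.5 to 325 ± 34.7 CPM (-0.27 ± 0.05, adjusted p = 0.000195) and from 767 ± 122 to 668 ± 165 CPM (-0.26 ± 0.09, adjusted p = 0.0312, edgeR), while its whole-gastruloid value was 0.37. Meg3 rose in Early Posterior PSM, from 209 ± 21.8 to 291 ± 53.0 CPM (0.40 ± 0.07, adjusted p = 1.78e-05, edgeR), opposite to its whole-gastruloid value. Mest fell in Caudal Epiblast, from 28.1 ± 15.1 to 17.2 ± 7.14 CPM (-0.82 ± 0.22, adjusted p = 0.00497, edgeR). In Early Posterior PSM, Nnat rose from 3.28 ± 3.47 to 18.6 ± 17.2 CPM (1.60 ± 0.35, adjusted p = 0.000364, edgeR). Peg10 fell there from 59.2 ± 18.6 to 48.8 ± 15.4 CPM (-0.43 ± 0.12, adjusted p = 0.00483, edgeR). Cdkn1c, at 1.32 in whole gastruloids, was called in neither type. It gave 0.25 ± 0.18 in Caudal Epiblast (adjusted p = 0.326) and 0.10 ± 0.18 in Early Posterior PSM (adjusted p = 0.713, edgeR). In the latter its mean went from 88.6 ± 51.5 to 76.6 ± 28.0 CPM. Thus 3 of 6 members tested were called in Caudal Epiblast, beside 21.2% of all genes. In Early Posterior PSM 5 of 8 were, beside 38.3%. In MULTI-seq 2 a single type could be tested from day 4 to 4.5, and edgeR called 0 of the 6 members that entered, beside 1.13% of genes in that type (Late Posterior PSM). Unadjusted p was under 0.05 for 2 of the 6, and the smallest adjusted p was 0.169, for Peg3 at 232 ± 88.2 and 190.5 ± 28.4 CPM (edgeR).

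At matched days the experiments differed in several members. At day 5, Plagl1 was at 0, 0.366 and 3.24 CPM (lowest, median, highest) in MULTI-seq 3 and 0, 4.49 and 10.2 CPM in MULTI-seq 1, a log2 fold change of -2.81 ± 0.35 (adjusted p = 3.97e-09, edgeR). H19 was at 0.123, 1.2 and 5.75 CPM in MULTI-seq 3 against 0, 3.90 and 39.0 CPM in MULTI-seq 1 (-1.95 ± 0.50, adjusted p = 0.000834, edgeR). Nnat was at 2.66, 20.8 and 135 CPM against 25.2, 57.0 and 209 CPM (-1.11 ± 0.31, adjusted p = 0.00164, edgeR). These ranges overlapped in each case. Meg3 was lower too (-0.36 ± 0.13, adjusted p = 0.0143), and Peg10 (0.76 ± 0.23, adjusted p = 0.00344), Peg3 (0.49 ± 0.11, adjusted p = 0.000194) and Cdkn1c (0.47 ± 0.14, adjusted p = 0.00271) were higher in MULTI-seq 3 (edgeR). Thus 7 of the 10 members were called, beside 63.7% of all genes (30% higher and 33.7% lower). Igf2 (0.44 and 0.46) was called as well without lane 3 of MULTI-seq 1 or lane B of the later pool (adjusted p = 0.0430 and 0.0359), and Dlk1 (0.59) without lane 3 of MULTI-seq 1 (adjusted p = 0.0459, edgeR). With plain library sizes Cdkn1c was not called (adjusted p = 0.108) and Mest was, at -0.33 (adjusted p = 0.00979, edgeR). Experiment, culture batch and depth cannot be told apart, and each experiment has its own pools.

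At day 4, 4 members were lower in MULTI-seq 3 than in MULTI-seq 2 and 3 were higher, where 46.1% of genes were called, 23.0% higher and 23.1% lower. The lower ones were H19 (-3.06 ± 0.62, adjusted p = 0.000167), Plagl1 (-2.83 ± 0.43, adjusted p = 3.17e-06), Nnat (-2.41 ± 0.42, adjusted p = 2.25e-05) and Meg3 (-0.44 ± 0.07, adjusted p = 6.49e-06), all by edgeR. Igf2 (1.71 ± 0.34, adjusted p = 0.000129), Peg10 (0.90 ± 0.18, adjusted p = 0.000110) and Cdkn1c (0.58 ± 0.24, adjusted p = 0.0454) were the higher ones (edgeR). The Cdkn1c call was lost without lane 2 or lane 3 of MULTI-seq 2 (adjusted p = 0.0530 and 0.0833, edgeR) and with at least 100 cells (adjusted p = 0.234, edgeR). With plain library sizes Peg3 was called as well (0.59, adjusted p = 0.0310, edgeR). Nnat at day 4 spanned 12.4, 45.8 and 179 CPM in MULTI-seq 2. At day 4.5, Nnat (-0.97 ± 0.32, adjusted p = 0.0135) and Meg3 (-0.63 ± 0.16, adjusted p = 0.00223) were lower and Cdkn1c (0.53 ± 0.12, adjusted p = 0.000849) was higher, beside 42.5% of all genes, 21.1% higher and 21.4% lower (edgeR). The Nnat call was lost without lane 2 of MULTI-seq 2 (adjusted p = 0.0512, edgeR). H19 and Plagl1 did not pass the filter at day 4.5, and without a filter they gave -2.73 ± 0.64 and -2.32 ± 0.43 (adjusted p = 0.00149 and 9.18e-05, edgeR). The comparisons at the 3 days are not independent, since MULTI-seq 3 is on one side of each and in MULTI-seq 2 the gastruloids of both days came from a common pool and its lanes.

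The same direction held inside cell types at day 5. Nnat was lower in MULTI-seq 3 than in MULTI-seq 1 in all 8 types tested, by -2.36 to -1.14 on the log2 scale, and Meg3 in 7 of 8. In Late Posterior PSM, Nnat was at 14.7 ± 26.0 CPM against 52.3 ± 34.6 CPM (-2.36 ± 0.35, adjusted p = 4.45e-08, edgeR). H19 could be tested in Mature Somites, where it was at 4.31 ± 4.24 against 20.7 ± 18.1 CPM (-2.11 ± 0.33, adjusted p = 4.12e-07, edgeR). Plagl1 could be tested in Late Spinal Cord, at 0.667 ± 1.41 against 5.99 ± 4.88 CPM (-2.75 ± 0.47, adjusted p = 7.12e-06, edgeR). Mest, not called in whole gastruloids (-0.11 ± 0.11, adjusted p = 0.411; -0.58, adjusted p = 4.08e-05, by limma with equal weight per type), was lower in 6 of 8 types, for example at 549 ± 85.5 against 859 ± 271 CPM in Mature Somites (-0.44 ± 0.08, adjusted p = 8.72e-06, edgeR). Cdkn1c was called higher in 7 of 8 types, with 0 of these calls against the direction of mean CPM. Its means were close in Mature Somites, at 341 ± 54.6 against 333 ± 99.7 CPM (0.28 ± 0.08, adjusted p = 0.00322, edgeR). They lay further apart in Somites, at 522 ± 132 against 360 ± 120 CPM (0.69 ± 0.13, adjusted p = 2.50e-05, edgeR).

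Peg3 was called higher in 5 of 8 types, but in 2 of those the mean CPM went the other way, as in Mature Somites with 621 ± 87.0 against 635 ± 98.9 CPM. With each cell type given equal weight, its whole-gastruloid difference at day 5 was -0.05 (adjusted p = 0.588, limma) in place of 0.49. In this comparison the share of genes called was 14.5% in Mature Endoderm, 39.0% in Somites, 46.5% in Late Anterior PSM, 48.5% in Late Spinal Cord, 53.5% in Late Posterior PSM, 53.6% in NMPs, 54.3% in Mature Somites and 59.8% in Early Spinal Cord.

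Cell to cell, Nnat and H19 were concentrated in few cells. In Mature Somites at day 5 of MULTI-seq 3 (3190 cells, a median of 24907.5 UMIs each), 12.7% of cells held a Nnat UMI, whereas 80.7% would if its UMIs were spread evenly in proportion to depth. A cell with Nnat held 15.1 of its UMIs on average and at most 144, and the top 1% of cells held 35.0% of all Nnat UMIs. H19 was found in 3.89% of cells, against 13.8% if even, and the top 1% of cells held 75.9% of its UMIs. For Igf2 the share was 92.4% against 98.1%, for Peg3 97.7% against 100%, and for Plagl1 0.439% against 0.531%. Mest (88.4%) and Cdkn1c (93.7%) were also widespread, and Dlk1, in 33.4% against 59.2%, and Meg3, in 81.4% against 99.4%, lay between.

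**Figure D4:**
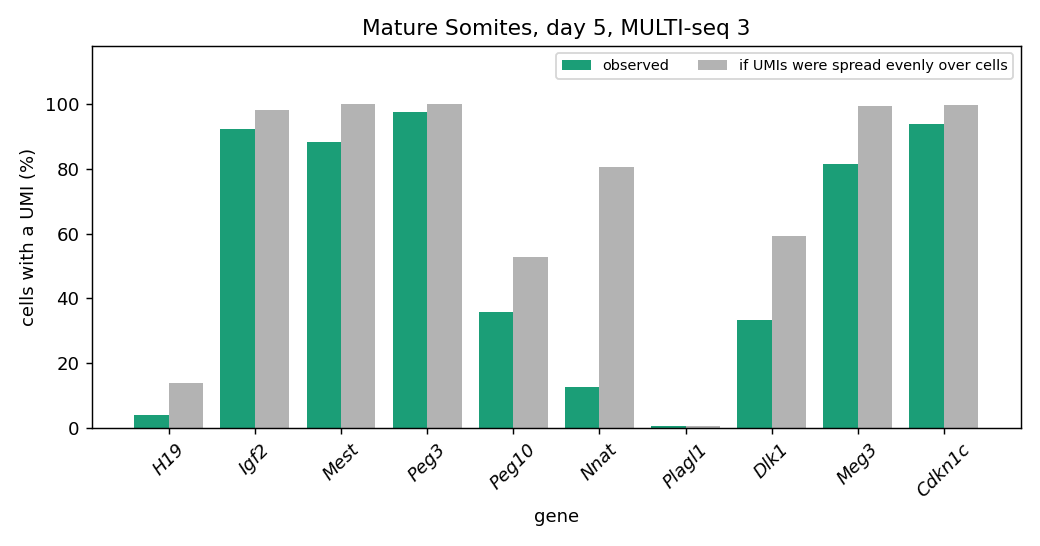
Share of Mature Somites cells of day 5, MULTI-seq 3, with at least 1 UMI of each member (green bars, percent, y axis from 0), beside the share if the same UMIs were spread evenly over cells by depth (grey bars). Nnat departs from the even share by 12.7% against 80.7%, and Igf2 by 92.4% against 98.1%.

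Free RNA in droplets can give a cell a UMI of a gene it does not express, so the shares were set beside another cell type of the same lanes. In Late Spinal Cord (2098 cells, median 31399 UMIs), 8.39% of cells held a Nnat UMI, 4.07 UMIs each on average, and 0.0953% held an H19 UMI. Thinned to 5000 UMIs per cell, the Nnat share was 7.39% in Mature Somites and 3.08% in Late Spinal Cord. Other types lay on both sides, from 2.12% in Mature Endoderm to 8.93% in Notochord and 11.2% in Cardiopharyngeal Mesoderm. Before thinning, H19 was found in 5.59% of Somites cells and 3.28% of Endothelium cells, and in 0% of Notochord cells. In Mature Somites of MULTI-seq 1 (1702 cells, median 10026 UMIs), 25.5% of cells held a Nnat UMI and 8.40% an H19 UMI despite the lower depth. Thinned, those shares were 21.4% and 5.94%. By gastruloid, the Nnat share of MULTI-seq 3 Mature Somites spanned 6.30%, 10.7% and 27.0%, below the 12.2%, 23.2% and 40.8% of MULTI-seq 1 at each of lowest, median and highest.

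Mature Somites also showed how far gastruloids differed in Nnat within one cell type. Its lowest, median and highest levels were 12.8, 36.7 and 249 CPM at day 5 of MULTI-seq 3 (n = 16), and 37.8, 147 and 304 CPM in MULTI-seq 1 (n = 23). Igf2 in the same cells spanned 163, 187 and 223 CPM in MULTI-seq 3, and Peg3 468, 619 and 741 CPM. The biological coefficient of variation that edgeR estimated for Nnat, 0.622, was above that of 99.95% of the genes fitted there, and for Peg10, 0.370, above 99.6%. For Igf2, 0.0806, it was above 65.5%, and in the other 4 groups of Mature Somites above 84.6% to 93.3%. This coefficient holds all spread beyond Poisson counting. For Nnat that takes in which cells were sampled, since 12.7% of cells held it, with 15.1 UMIs each on average. The highest gastruloid had 299, 280 and 190 CPM of Nnat in its 3 lanes and the lowest 20.4, 2.02 and 14.5 CPM, a description only, since both were picked by the sums of these lanes. Taking log2(CPM + 1) of Nnat in Mature Somites per lane and averaging over lanes, the SD over gastruloids was 1.26. The SD between single lanes of one gastruloid was 1.47, where each lane holds few cells with Nnat. A mean over lanes keeps part of the spread between lanes, so the 1.26 is not spread between gastruloids alone.

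**Figure D5:**
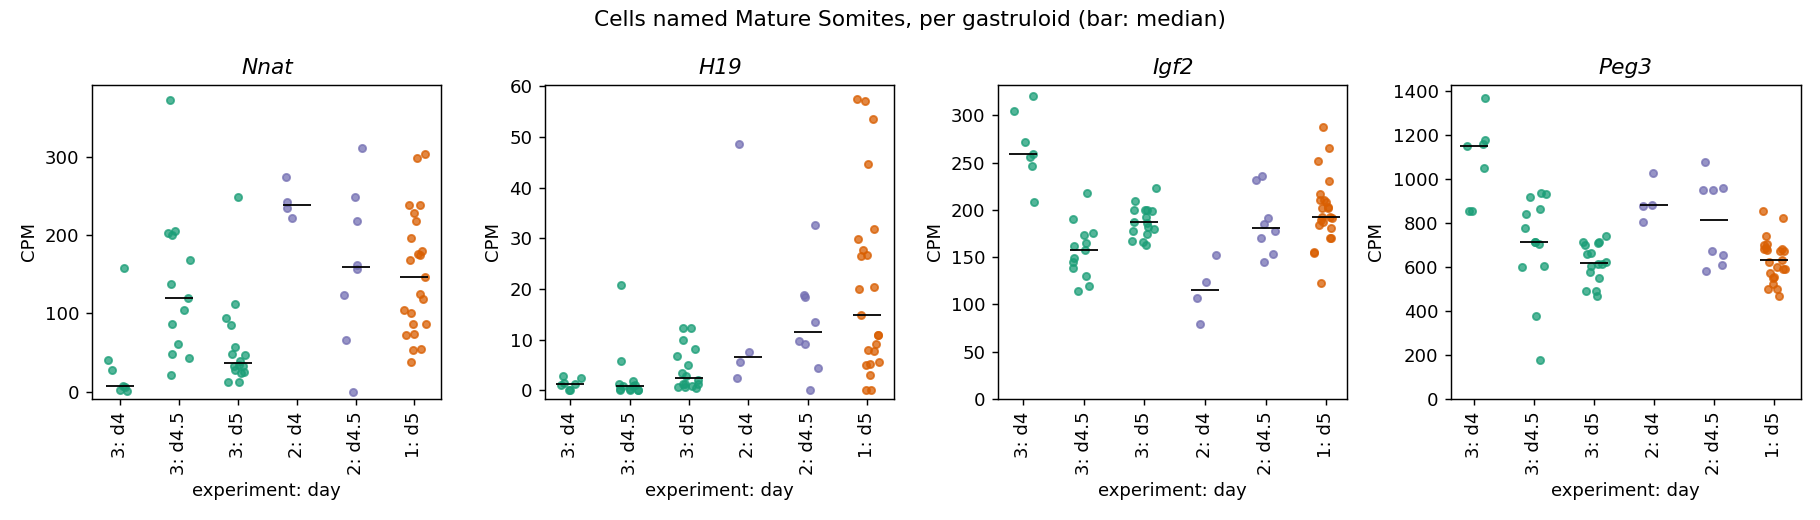
Level of members in Mature Somites cells of each gastruloid (points, CPM) by experiment and day. Nnat spans 12.8 to 249 CPM at day 5 of MULTI-seq 3 while Igf2 spans 163 to 223 CPM.

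Other genes of these pathways were followed in fixed lists. From day 3.5 to 4, 11 of 16 other paternally expressed genes tested were higher and 4 lower, with a median log2 fold change of 0.44 against 0.01 for all genes. Over all genes of that step 31.1% were called higher and 29.2% lower. Among them Ndn rose by 0.47 and Zdbf2 fell by 0.52. Of 14 other maternally expressed genes 7 were higher and 3 lower, with Grb10, an adaptor that dampens insulin and IGF receptor signalling, at 0.89 and Gnas at 0.51. The IGF list had 7 higher and 0 lower of 8, including the receptor Igf1r at 0.48 and the mRNA-binding protein Igf2bp2 at 0.60. The genes that keep imprints had 1 higher and 2 lower of 7, with Trim28 at -0.09 and the methyltransferase Dnmt1 at -0.12. Among other inhibitors of cyclin-dependent kinases, 3 were higher and 1 lower of 6, the lower one being Cdkn1a at -1.60, while Cdkn1c rose.

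From day 4.5 to 5, 6.35% of all genes were called higher and 7.11% lower. The paternally expressed list had 1 higher and 1 lower of 15, the maternally expressed list 2 higher of 12 with Grb10 at 0.43, and the IGF list 3 higher and 1 lower of 8. Of the genes that keep imprints 1 was higher and 2 lower of 7. Between MULTI-seq 3 and MULTI-seq 1 at day 5, where 30% of all genes were called higher and 33.7% lower, 2 paternally expressed genes were higher and 6 lower of 15, with a median of -0.13 against -0.02 for all genes. Of the maternally expressed genes, 4 were higher and 0 lower of 11. The IGF list had 5 higher and 1 lower of 9, the genes that keep imprints 4 higher and 3 lower of 7 and the other inhibitors of cyclin-dependent kinases 3 higher of 4.

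The other steps gave other splits. From day 3 to 3.5, where 39.3% of all genes were called higher and 35.6% lower, the IGF list had 8 higher of 8, the paternally expressed list 5 higher and 4 lower of 14 and the maternally expressed list 5 higher and 2 lower of 12. Of the genes that keep imprints 4 were higher and 1 lower of 7, and of the other inhibitors of cyclin-dependent kinases 1 was higher and 4 lower of 5. From day 4 to 4.5 of MULTI-seq 3, where 32.4% of all genes were called higher and 33.8% lower, the maternally expressed list had 1 higher and 9 lower of 12, with a median of -0.33 against -0.02 for all genes. The IGF list had 2 higher and 5 lower of 8 in that step, the paternally expressed list 7 higher and 5 lower of 15, the genes that keep imprints 3 higher and 4 lower of 7 and the inhibitors 1 higher and 1 lower of 5. In the same step of MULTI-seq 2 the IGF list had 3 higher and 0 lower of 8, the paternally expressed list 2 higher of 15, the maternally expressed list 2 lower of 11 and the genes that keep imprints 1 lower of 7, beside 3.03% of all genes higher and 4.33% lower.

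Of transcripts that overlap or adjoin a member, Blcap, the host of Nnat, rose by 0.79 from day 3.5 to 4, beside 1.52 for Nnat. No source used here states whether the counting used strand. Of the 8 such transcripts tested in that step, 4 were higher and 3 lower.

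Genes with the most similar levels were sought over 107 sums of a cell type, pool and day, among 7650 genes, by Pearson's r of log2(CPM + 1). These sums share lanes and depth, and each experiment has its own pools. Differences between experiments, as called above for several members, can therefore enter r beside those of type and day. So r is a description and not a course within an experiment. Meg3 was most like its neighbours Rian (0.932), B830012L14Rik (0.906) and Mirg (0.887), and Peg3 like its neighbour Usp29 (0.883) and Rdh10 (0.724). Igf2 was most like Ddah2 (0.860), Fbn2 (0.854) and Gnas (0.848), and Nnat like Rbm4b (0.836), Jam3 (0.835) and Pgrmc1 (0.812). H19 was most like Col26a1 (0.793), Pgrmc1 (0.760) and Gusb (0.749), and Mest like Fam172a (0.782), Lpar6 (0.747) and Tuba1a (0.746). For Cdkn1c they were Ctdspl (0.776), Fam216a (0.767) and Tgfb2 (0.759), and for Dlk1 Cyth2 (0.774), Clu (0.773) and H1f0 (0.770). Plagl1 was most like Chmp6 (0.720), Mgat1 (0.691) and Dbnl (0.688), and Peg10 like Zfp217 (0.693), Ogfrl1 (0.693) and Vcl (0.689).

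Across gastruloids of one experiment and day, 48 relations between pairs of members were tested by permutation, with p adjusted over the 48. Outside groups that fell into 2 clusters, 9 passed for Pearson's r. Some passed for rho only, such as Dlk1 and Meg3 at day 3.5 of MULTI-seq 3 (r = -0.541, rho = -0.715). H19 and Igf2 at day 4 of MULTI-seq 3 were another case (r = 0.502, rho = 0.694). Permutation adjusted p was 0.100 and 0.128 for r, and 0.0229 for rho in both. At day 4 of MULTI-seq 3, Cdkn1c and Igf2 were positively related (r = 0.912, rho = 0.906, each with a permutation p of 1e-05, the smallest possible, adjusted p = 0.000480), and r was 0.877 without the 2 outermost gastruloids. At day 5 of the same experiment the pair gave r = 0.0241 (permutation p = 0.930). Dlk1 and Meg3 gave r = 0.853 at day 4.5 (rho = 0.815, permutation adjusted p = 0.00120), 0.759 at day 5 (rho = 0.7, adjusted p = 0.00682) and 0.644 in MULTI-seq 1 (rho = 0.718, adjusted p = 0.00682), but -0.676 at day 3 (rho = -0.546, permutation adjusted p = 0.00608). Without the outermost 2 gastruloids these were 0.820, 0.614, 0.545 and -0.499.

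H19 and Igf2, neighbours on chromosome 7, gave r = 0.784 at day 4 of MULTI-seq 2 (rho = 0.800, permutation adjusted p = 0.0225, or r = 0.691 and 0.0635 with a pseudocount of 10 CPM) and 0.515 in MULTI-seq 1 (rho = 0.489, adjusted p = 0.0404 for r and 0.0502 for rho). The latter was 0.336 without the outermost 2. Plagl1 and Igf2 gave negative values, -0.574 in MULTI-seq 1 and -0.703 at day 4.5 of MULTI-seq 3 (rho = -0.597 and -0.614, permutation adjusted p = 0.0169 and 0.0185 for r, 0.0229 and 0.0502 for rho). The second rests on 57 Plagl1 UMIs over 16 gastruloids, 3 of them at 0, and the first on 574 over 24. A further setting used only cells of the most frequent type of each experiment and day, the same type for all its gastruloids. Gastruloids with under 10 cells of that type did not enter. There 0 of the 48 passed and 6 had an unadjusted permutation p under 0.05, the smallest adjusted p being 0.0941. In that setting Dlk1 and Meg3 gave r = 0.0293 at day 4.5 of MULTI-seq 3, 0.0104 at day 5, 0.0990 in MULTI-seq 1 and -0.293 at day 3. H19 and Igf2 gave r = -0.0852 in MULTI-seq 1 and 0.0691 at day 4 of MULTI-seq 2. Cdkn1c and Igf2 at day 4 of MULTI-seq 3 fell into 2 clusters within Early Posterior PSM, as did 12 of the 48 in all, so no pooled r is given for that pair. Its unadjusted p was among the 6 under 0.05, with those of Dlk1 and Meg3 at day 4.5 of MULTI-seq 2 and Plagl1 and Cdkn1c at day 4 of MULTI-seq 3, which also fell into 2 clusters. The others of the 6 were Dlk1 and Meg3 at day 4 of MULTI-seq 3 (r = 0.619, permutation p = 0.0108, adjusted p = 0.106), Cdkn1c and Igf2 at day 5 (r = 0.568, permutation p = 0.0229, adjusted p = 0.184) and Plagl1 and H19 in MULTI-seq 1 (r = 0.521, permutation p = 0.0111, adjusted p = 0.106).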

How the data were processed

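The 18 lanes with matrices analysed here were deposited by the authors as raw UMI counts per gene and cell, with their cell table giving day, gastruloid and cluster name. Alignment to mm10 with Cell Ranger 6.0.0 and use of Seurat are listed in the submitters' processing notes. The authors' per-cell totals equalled the sums of the deposited counts in 100% of cells of MULTI-seq 2 and 3 and in 0% of cells of MULTI-seq 1 and the plain 10X lanes. Days 3 and 3.5 of MULTI-seq 2, set aside for quality per the labels, were not analysed here.

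Counts of the 53730 cells with a gastruloid call were summed over lanes per gastruloid (at least 30 cells) and per cell type (at least 10 cells, tested with at least 6 gastruloids in each group). Cells called negative, doublet or unidentifiable were left out and no further doublet caller was run. Lanes split the same gastruloids, so they are not replicates. P-values set a difference against the spread between gastruloids of the same experiment and day, and not against a spread between cultures. All genes entered edgeR 4.0.16 (R 4.3.3, limma 3.58.1; TMM, filterByExpr, quasi-likelihood, Benjamini-Hochberg at 0.05), and DESeq2 1.42.0 was an alternative. Python 3.11.15, numpy 2.4.6, scipy 1.17.1, pandas 2.3.3 and matplotlib 3.10.9 served for the rest. Levels across types are means over gastruloids with SD. Correlations used log2(CPM + 1) and 100000 permutations. Gene positions are from GENCODE on GRCm38. Fits were tested on simulated data.

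The members and lists were chosen with earlier results of these data known. All 10 members are named, with the 3 most similar genes (1 of which is not reported here; over sums of at least 50 cells and genes of at least 10 CPM on average), and at most 4 genes per list, those with the highest mean CPM. Genes shown outside these rules are the overlapping transcripts and cell type markers. Alternatives covered size factors, the filter, the minimum of cells (100, or 20 per type), equal weight per type (limma on log2(CPM + 1)), the pseudocount (10 CPM), thinning and leaving out each lane.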

Additional observations from a re-analysis of the deposited data

Results flagged for a closer look

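In 40 of 257 groups of 4 to 10 gastruloids or lanes (15.6%), the highest or lowest value stood apart from the rest by Dixon's 95% criterion. The criterion is set for normally distributed values, which meet it in about 1 of 20 groups. Many CPM values here are 0, and a group with a single value above 0 always meets it. That rate therefore does not apply to these groups. Values are CPM, with the next value in the group behind it. No explanation was tested for any of them, and for H19, Plagl1 and Dlk1 many rest on a gastruloid with a few UMIs beside others at 0.

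At day 4 of MULTI-seq 2, single gastruloids stood apart in 5 cell types. In Early Posterior PSM, Plagl1 in the highest of 8 gastruloids was 0.876 against 0. In Early Spinal Cord, H19 in the highest of 4 gastruloids was 1.84 against 0, Peg3 in the lowest of 4 gastruloids was 94.7 against 124 and Dlk1 in the highest of 4 gastruloids was 1.84 against 0. In Late Posterior PSM, Plagl1 in the highest of 6 gastruloids was 2.13 against 0. In Mature Somites, H19 in the highest of 4 gastruloids was 48.6 against 7.63. In Somites, H19 in the highest of 4 gastruloids was 66.6 against 11, Mest in the highest of 4 gastruloids was 284 against 116 and Plagl1 in the highest of 4 gastruloids was 6.05 against 0.

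At day 4.5 of MULTI-seq 2, single gastruloids stood apart in 4 cell types. In Late Posterior PSM, H19 in the highest of 8 gastruloids was 2.96 against 0.716 and Nnat in the highest of 8 gastruloids was 86.8 against 41.5. In Late Spinal Cord, H19 in the highest of 5 gastruloids was 0.831 against 0. In NMPs, H19 in the highest of 8 gastruloids was 1.04 against 0. In Somites, H19 in the lowest of 4 gastruloids was 0 against 24.6, Meg3 in the highest of 4 gastruloids was 1190 against 783 and Cdkn1c in the lowest of 4 gastruloids was 117 against 250.2.

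At day 3 of MULTI-seq 3, single gastruloids stood apart in 1 cell type. In Caudal Epiblast, Nnat in the highest of 6 gastruloids was 1.86 against 0 and Plagl1 in the highest of 6 gastruloids was 1.75 against 0.

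At day 3.5 of MULTI-seq 3, single gastruloids stood apart in 2 cell types. In Early Spinal Cord, Mest in the lowest of 10 gastruloids was 91.5 against 139.6, Nnat in the highest of 10 gastruloids was 57.7 against 14.8, Plagl1 in the highest of 10 gastruloids was 2.93 against 0 and Dlk1 in the highest of 10 gastruloids was 1.99 against 0.650. In Late Posterior PSM, Mest in the lowest of 4 gastruloids was 0 against 11.4.

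At day 4 of MULTI-seq 3, single gastruloids stood apart in 3 cell types. In Early Spinal Cord, Peg10 in the highest of 5 gastruloids was 44.8 against 28.3. In Late Anterior PSM, Nnat in the highest of 10 gastruloids was 78.3 against 23.1. In Mature Somites, Mest in the highest of 7 gastruloids was 249 against 143 and Nnat in the highest of 7 gastruloids was 158 against 41.0.

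At day 4.5 of MULTI-seq 3, single gastruloids stood apart in 4 cell types. In Late Anterior PSM, Igf2 in the highest of 9 gastruloids was 158 against 125 and Plagl1 in the highest of 9 gastruloids was 1.54 against 0. In Late Spinal Cord, H19 in the highest of 7 gastruloids was 0.632 against 0.201. In Mature Endoderm, Cdkn1c in the highest of 7 gastruloids was 748 against 429. In Somites, Plagl1 in the highest of 10 gastruloids was 2.71 against 0 and Dlk1 in the highest of 10 gastruloids was 102 against 58.4.

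At day 5 of MULTI-seq 3, single gastruloids stood apart in 2 cell types. In Late Spinal Cord, H19 in the highest of 8 gastruloids was 0.346 against 0, Plagl1 in the highest of 8 gastruloids was 4.11 against 0.567 and Dlk1 in the highest of 8 gastruloids was 4.29 against 1.42. In Mature Endoderm, H19 in the highest of 9 gastruloids was 1.58 against 0.644, Igf2 in the highest of 9 gastruloids was 178 against 67.0 and Plagl1 in the highest of 9 gastruloids was 3.22 against 1.15.

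Of the 4 lanes of the pool of days 3.5 and 4, the lowest had 86.6 CPM of Igf2 and the next 90.8 CPM, a gap that is small beside the level.

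The change from day 4 to day 4.5 differed between MULTI-seq 3 and MULTI-seq 2 for 3 members by edgeR's test of the difference, at 1.45 for Nnat, -0.77 for Peg10 and -1.92 for Igf2 on the log2 scale.

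Lanes without gastruloid calls entered no comparison, and each has one value per gene, above the level that 3 counts give. The plain 10X lane of day 3 had 6.35 for Igf2, 22.7 for Mest, 317 for Peg3, 24.0 for Peg10, 1.76 for Nnat, 0.257 for Plagl1, 4.84 for Dlk1, 306 for Meg3 and 60.2 for Cdkn1c in CPM, with H19 below that level. The 10X lane of day 4 had 0.559 for H19, 105 for Igf2, 127 for Mest, 463 for Peg3, 34.7 for Peg10, 12.6 for Nnat, 0.319 for Plagl1, 13.4 for Dlk1, 329.5 for Meg3 and 208 for Cdkn1c. Lane 1 of the pool of MULTI-seq 2 that carries no calls had 3.62 for H19, 46.2 for Igf2, 123 for Mest, 328 for Peg3, 32.0 for Peg10, 46.3 for Nnat, 1.79 for Plagl1, 4.57 for Dlk1, 265 for Meg3 and 162 for Cdkn1c. Lane 2 of that pool had 3.15 for H19, 48.7 for Igf2, 130.2 for Mest, 321 for Peg3, 29.3 for Peg10, 49.7 for Nnat, 2.08 for Plagl1, 4.89 for Dlk1, 238 for Meg3 and 158 for Cdkn1c. Nnat in both lanes lay between the medians of day 4 and day 4.5, 45.8 and 71.1 CPM, of the other MULTI-seq 2 pool, and Plagl1 was above 1 CPM there and below 1 CPM in the plain 10X lanes.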

How the results depend on the processing

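Of 79 member fold changes, 78 were unchanged in direction and call with DESeq2's size factors, 78 with DESeq2's test, 76 with at least 100 cells and 75 with no filter. With plain library sizes (members left out of the totals and no composition factors) 5 calls were lost and 5 gained, with equal weight per cell type 11 were lost and 4 gained (among those lost, Peg3 at day 5 between MULTI-seq 3 and MULTI-seq 1 went to the other side of 0, -0.0468 in place of 0.49), and over 420 member fold changes refitted without a lane 13 were lost and 3 gained. Members called at day 4.5 between MULTI-seq 3 and MULTI-seq 2 were 3 in the main analysis, 5 with no filter and 1 with equal weight. Without single lanes, members called ranged from 1 to 3 for the difference between experiments in the step to day 4.5 (3 in all; 1 without lane 3 of MULTI-seq 2). Relations across gastruloids passing the test went from 9 to 0 in the most frequent type, and were 9 with a pseudocount of 10 CPM, 1 lost and 1 gained (H19 and Igf2 of MULTI-seq 2, at day 4 and day 4.5). Shares of Mature Somites cells with a UMI, thinned to 3000 in place of 5000 UMIs, were 0.958% for H19, 39.7% for Igf2, 66.4% for Mest, 73.1% for Peg3, 7.56% for Peg10, 6.33% for Nnat, 8.24% for Dlk1, 43.0% for Meg3 and 53.9% for Cdkn1c, as fewer UMIs give fewer cells with one. Otherwise the cause was not tested.

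With plain library sizes the median log2 fold change of all genes was 0.19 from day 3 to 3.5, -0.22 from day 4 to 4.5 of MULTI-seq 3 and -0.25 at day 5 between MULTI-seq 3 and MULTI-seq 1, against 0.03, -0.02 and -0.02. Genes called higher and lower were then 6630 and 2562 (main 4704 and 4260), 2232 and 6890 (main 4158 and 4337) and 1580 and 7170 (main 3518 and 3945). At day 4 between MULTI-seq 3 and MULTI-seq 2 they were 5325 and 1552 (main 3155 and 3173). No paired analysis was possible because the lane numbers split gastruloids of both groups and number no gastruloid pairs. H19 and Plagl1 failed the count filter at each step within MULTI-seq 3, so their changes there rest on few UMIs.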
